A study of Mus musculus with 2 samples.

Results

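Tags that repeat a position and strand already seen were concentrated in short stretches of the mouse genome in the input of a Tbx3 ChIP-seq study, and these stretches are described here. They were chosen from the input file alone, as 1 kb bins of chromosomes 1 to 19 and X that held 5 or more repeated tags. A repeated tag is an input line beyond the first at the same 5′ position and strand. The rule found 495 bins, which is 0.0211% of the 2346607 bins with an input tag and 495 of the 2418586 with a tag in either library. Since repeats chose the bins, their repeat numbers are given as a description.

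The study sequenced 1 library of chromatin precipitated with an antibody against Tbx3, a T-box transcription factor, and 1 library of input DNA that was not precipitated. Both came from untreated mouse embryonic stem cells of the D3 and R1 lines, grown with leukaemia inhibitory factor on inactivated feeder fibroblasts; which of these lines each library represents is not stated in the labels. The share of feeder DNA was not measured here. The 20 chromosomes held 6881110 ChIP tags and 10647721 input tags, of which 9982870 were at distinct positions and 664851 (6.24%) were repeats. In the ChIP file 0 lines repeated a position and strand, so its repeats had been collapsed before deposit. With 1 library per group no value here has a replicate error. Intervals are 95% exact binomial intervals on distinct tags and cover counting error only. They treat positions as independent, which neighbours are not, so they are too narrow.

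Input DNA samples sheared chromatin without selection and serves as the background for ChIP-seq. Repeated tags in such data have, in general, a pair of known sources: PCR copies of 1 fragment, and separate fragments from sequences that exist in many copies in cells but in few copies in the assembly. Satellite arrays near mouse centromeres are the best known such sequences. Whether the bins described here hold satellites was not examined, since no genome sequence of the build mm8 was used, and genes at these positions were not analysed.

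Repeats were very unevenly divided among the bins. The 495 bins held 605759 of the 664851 repeats, or 91.1%, and the 3 bins of most repeats alone held 389258, or 58.5% of all. The median bin held 11 repeats, with an interquartile range of 6 to 30.5, and the highest held 206717. Repeats numbered 1000 or more in 43 bins. The 69 bins with exactly 5 repeats had a median of 42 distinct input tags (interquartile range 10 to 92) and 3 ChIP tags, and the 117 bins with 4 had 25 (8 to 65) and 2.

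The bins fell into 3 kinds by how their repeats stacked, a division made after the values were seen. In 152 stacked bins the input held 2 or more tags per occupied position on average, with a median of 4.65, and these bins carried 600950 repeats, 90.4% of the library's total. In 285 dense bins many positions were hit but each only about once, at a median of 1.11 tags per position over 100 positions. The other 58 were sparse, with under 20 occupied positions and fewer than 2 tags at each on average. A bin has 2000 positions counting both strands. The number of occupied positions gives a reference, the repeats that would come with it if tags fell evenly on all positions of the bin. For the stacked bins this number was 2577, against the 600950 repeats seen. For the dense bins it was 1157 against 4414 seen, and 83 of the 285 held no more than 2 times this even number.

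In the larger stacked bins, tags filled runs of neighbouring bases. Over all stacked bins, 76.5% of occupied input positions were followed by an occupied position at the next base of the same strand, against 17.0% in dense bins. Runs of 10 or more positions, allowing steps of up to 2 bp, numbered 552 in stacked bins and held 68.5% of their positions, with a median of 19 positions and a longest run of 85. Such runs were found in 79 of the 152 stacked bins, in 74 of the 79 with 20 or more occupied positions and in 5 of the 73 with fewer, whose median was 7 positions. The ChIP tags of the same bins also lay at neighbouring bases: 70.7% were followed by a ChIP tag at the next base, against 15.1% in dense bins. The longest ChIP run had 59 positions. ChIP did not fill all input runs of stacked bins. Of the 552, 162 held 0 ChIP tags, 176 had ChIP at 10% or less of their positions and 109 at 90% or more. Median input copies were 5.25 in these 176 low runs and 11 in the 109 high ones.

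The bin with most repeats lay on chromosome 14 from 39187000 to 39187999 and showed the pattern base by base. It held 207058 input tags at 341 positions, or 607 per position, with up to 2774 at 1 position. All runs of 10 or more positions in this bin came in pairs on the 2 strands. On the plus strand they spanned 39187507 to 39187569, 39187617 to 39187648, 39187675 to 39187706 and 39187725 to 39187756, and on the minus strand 39187538 to 39187600, 39187648 to 39187679, 39187706 to 39187737 and 39187756 to 39187792. Every base within these 8 runs was occupied, and each minus-strand run began 31 bp after its plus-strand partner.

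ChIP tags at this place filled the lower runs and left most of the tallest ones empty. In the first pair of runs the median position held 342 input tags on plus and 382 on minus, and ChIP tags were present at 20 of 63 positions on each. In the second pair the medians were 1503.5 and 1687 input tags, and ChIP tags were present at 10 of 32 positions on each strand. The remaining pairs had medians of only 20 to 23 input tags, and there ChIP tags occupied 32 of 32, 32 of 32, 32 of 32 and 35 of 37 positions. Over the 173 bp that span all positions of 200 or more copies, 204125 input lines stood beside 67 ChIP tags, whereas the stretch after it had 2926 input lines and 133 ChIP tags.

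**Figure D1:**
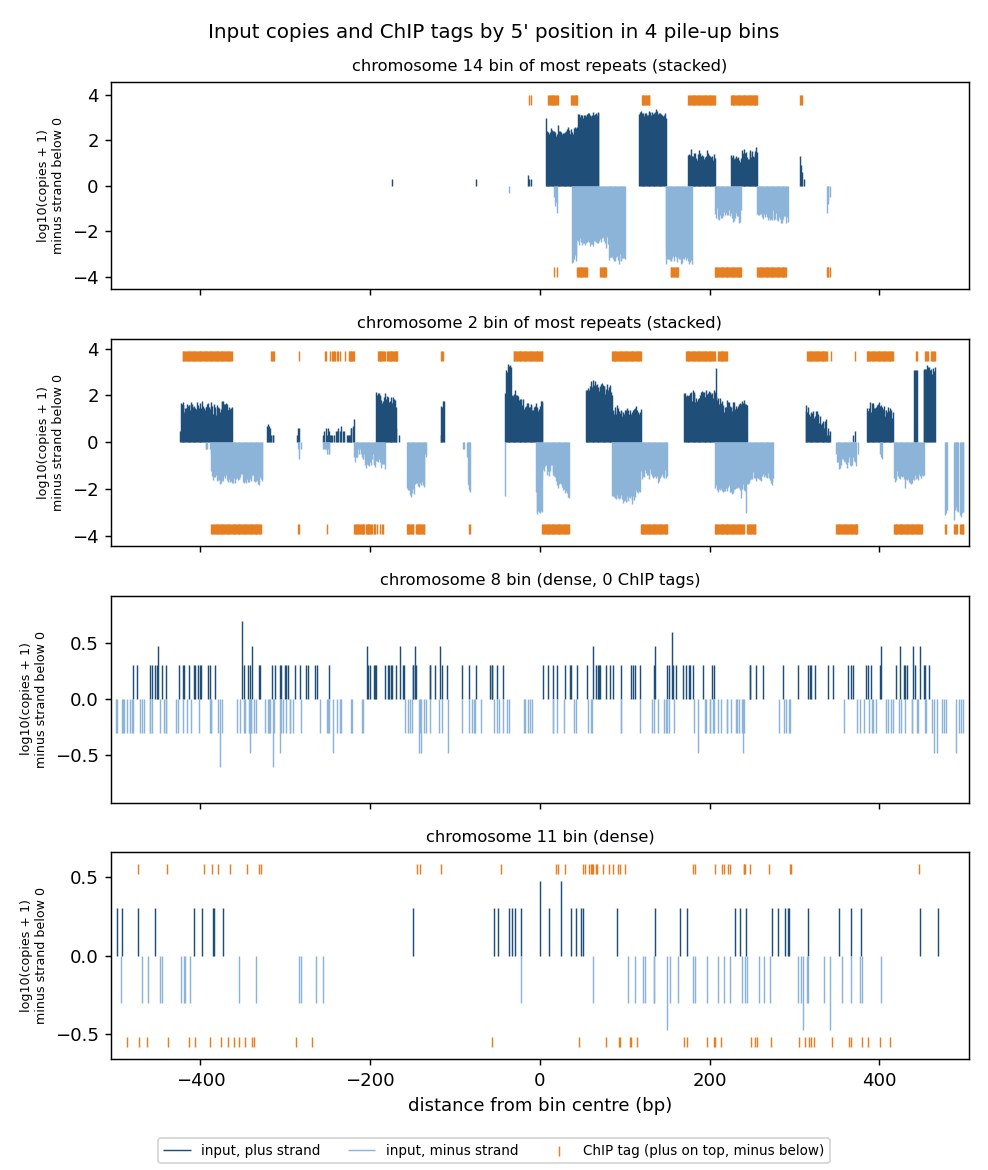
Input copies and ChIP tags by 5′ position in 4 pile-up bins, with distance from the bin centre in bp on the x axis and log10 of input copies plus 1 on the y axis, the minus strand drawn downwards. Orange ticks mark ChIP tags, plus strand on top and minus strand at the bottom. In the chromosome 14 bin the ticks fill the runs of about 20 input copies and cover 20 of 63 and 10 of 32 positions in the taller ones, while the dense chromosome 8 bin has 315 scattered input positions and 0 ChIP tags.

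The share of positions with a ChIP tag was also low at the tallest stacks when all stacked bins were pooled. A ChIP tag was present at 19.5% of the 4768 positions with 1 input tag (95% interval 18.4% to 20.6%), 37.8% of the 4256 with 2 to 4, 54.5% of the 2712 with 5 to 9, and 59.8% of the 4557 with 10 to 49. It was present at 55.6% of the 1133 positions with 50 to 199 input tags (52.7% to 58.5%) and at 18.5% of the 551 with 200 or more (15.4% to 22.0%). So the share rose with input copies up to 10 to 49 per position, and at 200 or more its interval overlapped that of single tags. Neighbouring positions share sequence and are not independent, so these intervals are too narrow.

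Positions with 200 or more input tags were few and came from 9 clusters, a cluster being pile-up bins at most 10 kb apart. They numbered 551, and 398 of them lay on chromosomes 2 and 14. There, 50 of 221 were held by ChIP in the chromosome 2 cluster of most repeats and 52 of 177 in the chromosome 14 bin. Elsewhere 0 of 153 were, which allows a share of up to 1.96%, taking 3 positions as the limit, or 2.38% by the exact 2-sided interval. Both limits treat these 153 positions as independent, which neighbours are not, so the limits are too low. On chromosome 6 the 92 such positions, from 103614845 to 103615065, held 26761 input tags and 0 ChIP tags, and 0 of 32 positions with 50 to 199 copies in that cluster were held either. At lower copy numbers the same cluster was not empty of ChIP, with 123 of 181 positions held. Outside chromosomes 2 and 14 the shares for 1, 2 to 4, 5 to 9, 10 to 49 and 50 to 199 copies were 18.5%, 36.0%, 50.5%, 51.6% and 42.7%.

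**Figure D2:**
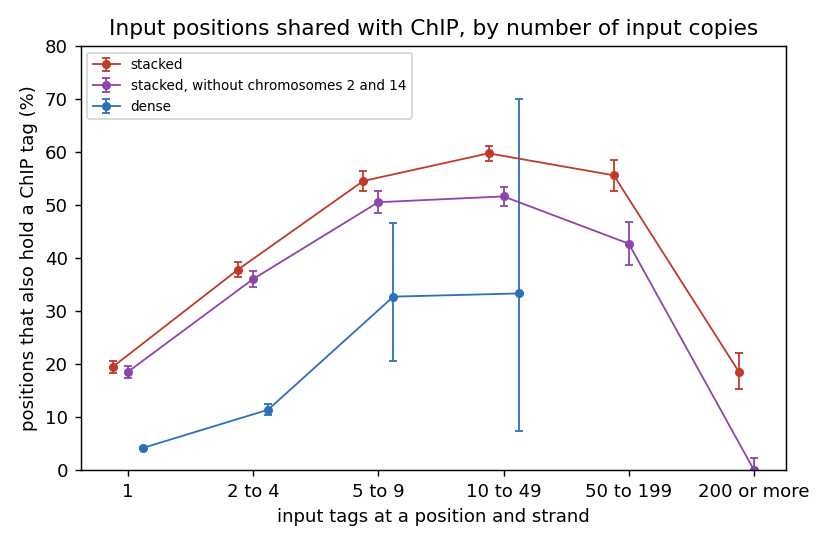
Share of input positions that also hold a ChIP tag (y axis, percent) by the number of input tags at the position (x axis), with 95% exact binomial intervals. Stacked bins rise from 19.5% at 1 copy to 59.8% at 10 to 49 copies and stand at 18.5% at 200 or more, or at 0 of 153 without chromosomes 2 and 14, and dense bins lie lower at 4.19% for 1 copy.

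The 2 libraries shared many positions in stacked bins. Of 17977 distinct input positions there, 7473 (41.6%, 40.8% to 42.3%) also held a ChIP tag, which is 3.62 times the 2063 that an even spread within each bin would give. In dense bins 1531 of 30203 positions coincided (5.07%), 2.61 times the even number, and in bins with fewer than 5 repeats 18099 of 9934019 (0.182%), 1.18 times. Moving the input positions of all 495 bins by 1 bp lowered the number of coincidences from 9015 to 8627 or 8664. Moving them by 20 bp lowered it to 4313 or 4443. In stacked bins it fell from 7473 to 7201 or 7221 at 1 bp, and to 6059 or 6053 at 5 bp. Most coincidences there outlasted these small shifts, so the overlap was largely of stretches of neighbouring bases. The even number takes no account of such stretches. The count was highest at no shift. It pools the 2 strands and changes little at 1 bp, so it does not settle the position convention of each strand.

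Median strand offsets in the pile-up bins were near 35 bp, the length of an input tag, in both libraries. The length of ChIP tags is not known here. The offset was the median 5′ end of the minus strand less that of the plus strand, where each strand had at least 3 distinct tags. Among the stacked bins its median was 31.5 bp in input (95 bins, interquartile range 20.5 to 36.25 bp) and 32 bp in ChIP (74 bins, 28 to 34 bp). Dense bins had medians of 30.25 bp in input (284 bins, -17.5 to 50.1 bp) and 33 bp in ChIP (138 bins, -37.1 to 66.25 bp), with much wider spread. Sparse bins had a median of 28 bp in input (33 bins, -167 to 118.5 bp), and only 4 could be measured in ChIP. Over all pile-up bins, 133 of 412 offsets in input and 84 of 216 in ChIP lay between 25 and 45 bp. The lag with most plus-minus pairs was between 25 and 45 bp in 72 of 73 stacked bins in input and in 61 of 61 in ChIP, counting bins with at least 10 tags per strand. In dense bins these numbers were 165 of 276 and 34 of 86.

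The correlation between strands gave the same picture. Over the positions of stacked bins, Pearson's r between the plus strand and the shifted minus strand peaked at 0.632 at 31 bp in collapsed input and at 0.625 at 34 bp in ChIP. Between 100 and 250 bp it did not exceed 0.0351 and 0.0341. With all input lines kept, the input peak was 0.783 at 36 bp, and r reached 0.238 at 110 bp. In dense bins the peaks were 0.0874 at 36 bp and 0.0726 at 34 bp. These correlations describe positions within bins that share sequence and library, and no test was made on them. Copies were also correlated across strands. Of all plus-strand positions in stacked bins, 6026 of 9043 had a minus-strand tag covering the same 35 bp, and over these windows Pearson's r of log2 copies was 0.80, against 0.20 over the 2278 such windows of dense bins.

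**Figure D3:**
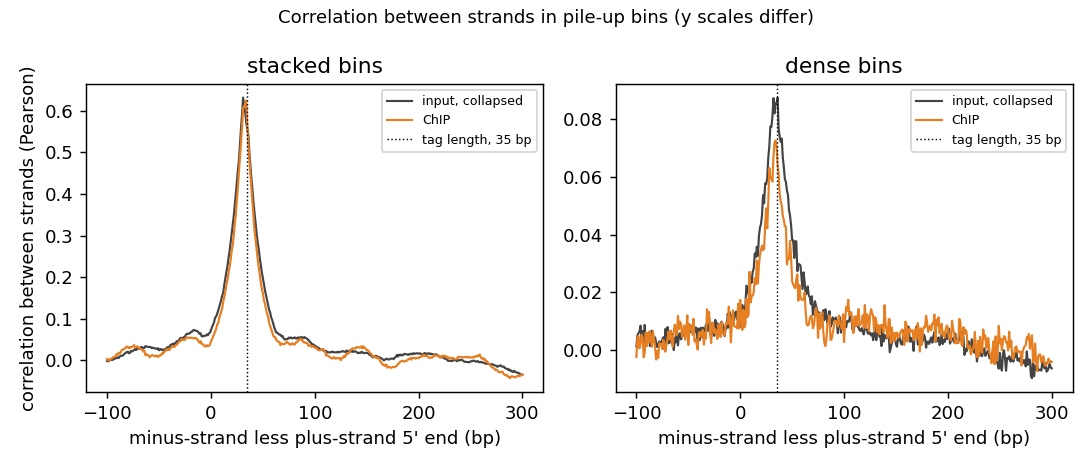
Pearson correlation between strands (y axis) by the distance from plus-strand to minus-strand 5′ ends in bp (x axis), in stacked bins on the left and dense bins on the right, with different y scales. Both libraries peak next to 35 bp, the length of an input tag. In stacked bins the peaks are at 31 bp in input and 34 bp in ChIP and reach 0.632 and 0.625. Neither library shows a second maximum of that size between 100 and 250 bp in collapsed tags.

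As a group, pile-up bins held a smaller share of ChIP than of input tags. The ratio used here divides ChIP tags by distinct input tags multiplied by 0.689, the ratio of the libraries' totals. A value of 1 means an equal share of the distinct tags of both libraries. Bins were chosen by their input, the denominator, so a ratio below 1 over them cannot be told apart from the choice and is a description. Over all bins with 0, 1 and 2 repeats, none of them pile-up bins, the ratio was 0.987, 0.751 and 0.410. Whether both files were filtered alike for tags that map to several places is not stated, and the part of such filters in the ratios was not tested. The 495 bins held 17078 ChIP tags (0.248% of the library, 0.244% to 0.252%) and 48851 distinct input tags (0.489%, 0.485% to 0.494%), a ratio of 0.507 (0.498 to 0.516). With all input lines counted the bins held 6.15% of the input and the ratio was 0.0404, a comparison that sets uncollapsed input against collapsed ChIP. By distinct input tags the ratio was 0.731 (0.713 to 0.750) in stacked, 0.377 (0.367 to 0.386) in dense and 0.385 (0.324 to 0.455) in sparse bins. Chromosome 8 held 102 of the 285 dense bins, with 92 of the 125 dense bins at a ratio of 0.1 or lower. Chromosome 11 held 47 of the 103 dense bins at 0.5 or higher. The dense value and its interval therefore depend strongly on these 2 chromosomes. The stacked value came from the larger bins: the 79 with 20 or more occupied positions had 0.743 (0.724 to 0.763), and the other 73 had 0.381 (0.318 to 0.454). The median over single stacked bins was 0.572.

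Single bins ranged from 0 ChIP tags to a ratio of 1.93. That highest ratio rests on 4 ChIP and 3 distinct input tags, on chromosome X from 18914000 (0.327 to 13.2). Of the 446 pile-up bins with 10 or more collapsed tags of both libraries together, 253 (56.7%) had a ratio of 0.5 or lower, against 16.6% of all 517508 bins of that depth. A ratio of 2 or higher was found in 0 of the 446, against 17.0% of all such bins. All such bins had a median of 11 collapsed tags of both libraries, and the 446 had a median of 99.5, so their ratios do not have the same precision. The choice by input also favours low ratios, and nothing is read from these shares. ChIP tags were absent from 90 of the 495 bins.

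Compared at similar numbers of distinct input tags and summed over bins, stacked bins had more ChIP tags than bins with few repeats. This does not match input lines, of which stacked bins hold many per position. With all input lines counted, the ratio was 0.0226 over all stacked and 0.351 over all dense bins, the reverse order. Between 20 and 49 distinct input tags, the ratio to these was 0.788 (0.672 to 0.923) in 14 stacked bins, 0.445 (0.406 to 0.488) in 60 dense bins and 0.220 (0.214 to 0.225) in 1807 bins with fewer than 5 repeats. From 100 to 199 input tags it was 0.943 (0.897 to 0.991) in 28 stacked bins, 0.364 (0.352 to 0.376) in 125 dense bins and 0.717 (0.677 to 0.759) in 30 bins with few repeats. The medians over single bins there were close, at 0.964 in stacked bins (interquartile range 0.817 to 1.08) and 0.943 in bins with few repeats (0.0233 to 1.22), and 11 of the 30 bins with few repeats but 0 of the 28 stacked bins were at 0.1 or lower. Between 20 and 49 input tags the medians were 0.812 and 0.0659. Ratios up to 0.1 were found in 6 of the 79 stacked bins with at least 20 input tags (7.59%), in 125 of the 285 dense bins (43.9%) and in 1159 of the 2065 bins with few repeats (56.1%). By summed tags, the order of dense bins and bins with few repeats thus turned with depth. Neighbouring bins of the same cluster count separately in these sums. The longest chromosome 8 cluster alone gave 83 dense bins (median 140 distinct input tags, ratio 0.0190). A chromosome 9 cluster gave 37 stacked bins. The turn therefore cannot be read as a trait of dense bins, and sums without these clusters were not compared by depth.

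**Figure D4:**
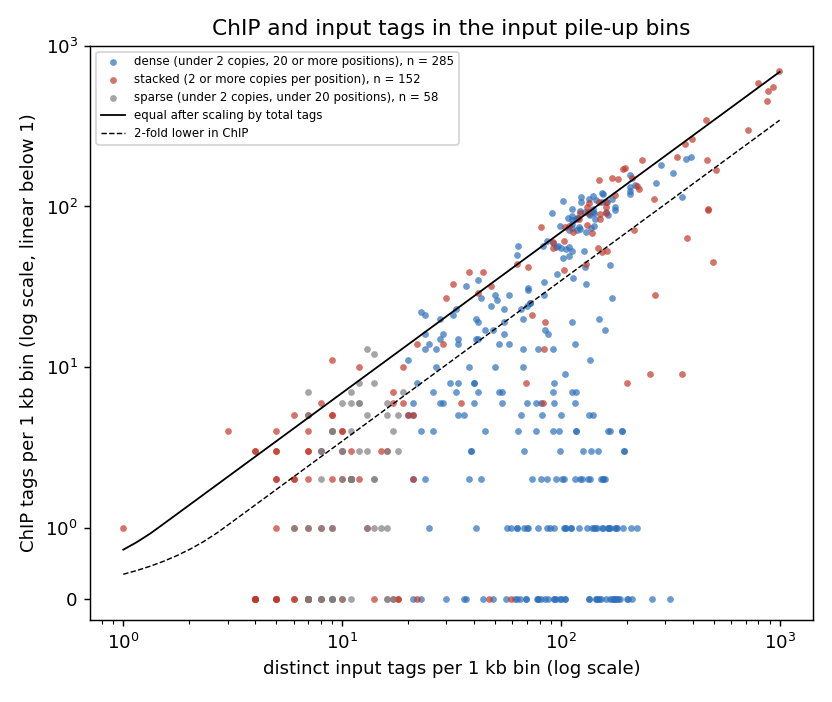
ChIP tags (y axis, log scale, linear below 1) against distinct input tags (x axis, log scale) in each of the 495 pile-up bins, coloured by kind. Many stacked bins lie along the solid line of equal shares of distinct tags. Dense bins are split between that line and the bottom of the plot, with 125 of 285 at a ratio of 0.1 or lower and 103 at 0.5 or higher.

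Bins with very many ChIP tags were mostly pile-up bins. Of the 58 bins of the genome with 100 or more ChIP tags, 48 were pile-up bins (82.8%), and of the 152 with 50 or more, 114 were (75.0%); such bins make up 0.00240% and 0.00628% of all bins. Among the 10 bins of most ChIP tags 9 were pile-up bins. The 5 pile-up bins with most ChIP tags were all stacked, with ratios between 0.753 and 1.07. On chromosome 5 from 3000000 to 3000999, 698 ChIP and 991 distinct input tags gave a ratio of 1.02 (0.926 to 1.13), and ChIP tags occupied 34.9% and input tags 49.55% of the bin's positions. Next were chromosome 2 from 98467000 with 585 ChIP and 796 input tags, chromosome 2 from 98463000 with 556 and 937, chromosome 5 from 3001000 with 526 and 887, and chromosome 14 from 18209000 with 456 and 879. In each of the 5 the distinct input tags outnumbered the ChIP tags.

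Across the genome the 495 bins formed 249 clusters, 209 of them single bins. The 12 clusters of most repeats were made only of stacked bins. The leading cluster, on chromosome 2 from 98463000 to 98468999, held 208282 repeats (31.3% of all) in 6 bins, and its 1736 ChIP and 2516 distinct input tags gave a ratio of 1.001 (0.941 to 1.06). The chromosome 14 bin described above held 31.1% of all repeats, with 202 ChIP tags and a ratio of 0.859 (0.719 to 1.03). On chromosome 9 from 3000000 to 3038999, 37 bins held 69808 repeats with a ratio of 0.538 (0.515 to 0.562). On chromosome 5 from 3000000 to 3002999, 3 bins held 32423 repeats with a ratio of 0.948 (0.887 to 1.01). These 4 clusters together show that large numbers of repeats occurred with ChIP shares both equal to and lower than shares of distinct input tags. Such shares compare occupied positions only. With all input lines counted, the 4 ratios were 0.0127, 0.00151, 0.0547 and 0.0656.

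The next 4 clusters had 1 to 3 bins. Chromosome 6 from 103614000 to 103615999 held 32100 repeats, with 90% of its input tags within 179 bp and a ratio of 0.666 (0.541 to 0.816). Its 2 bins differed: the second held 18850 input tags at 83 positions and 6 ChIP tags, a ratio of 0.105. Chromosome X from 138729000 to 138729999 held 11772 repeats, with 90% of its tags within 101 bp, at a ratio of 0.807 (0.611 to 1.06). Chromosome 4 from 63984000 to 63984999 held 9764 repeats at a ratio of 0.490 (0.351 to 0.675), with 90% of its input tags but 19 of its 52 ChIP tags within 133 bp. In chromosome 14, the cluster from 18208000 to 18210999 held 8973 repeats at a ratio of 0.809 (0.732 to 0.894), and its middle 90% of input tags covered 1477 bp.

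Among the last 4 of the 12, 1 cluster had a ratio above 1 beyond counting error. It lay on chromosome 9 from 35054000 to 35055999, with 5300 repeats, 317 ChIP and 341 distinct input tags and a ratio of 1.35 (1.15 to 1.58). Its ChIP strand correlation peaked at 31 bp, as did that of its input. Chromosome 12 from 3109000 to 3110999 held 3599 repeats at a ratio of 0.850 (0.639 to 1.12). Chromosome 9 from 24292000 to 24292999 held 1943 repeats at 1.13 (0.866 to 1.47), and chromosome 12 from 75722000 to 75723999 held 1286 at 0.828 (0.681 to 1.003). In all 12 clusters the strand correlation peaked between 31 and 35 bp in both libraries. Plus-strand tags made up between 41.2% and 60.7% of their input lines. A regular spacing of tags was weak in the leading cluster, where same-strand positions correlated best at 226 bp among lags of 60 bp and more in both libraries, with r of 0.104 in input and 0.129 in ChIP. On chromosome 12 from 75722000 the best lag was 122 bp in both (0.194 and 0.142). On chromosome 4 it was 122 bp in input (0.247) and 124 bp in ChIP (0.0805). In most of the others it was 60 bp in input, the smallest lag examined.

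**Figure D5:**
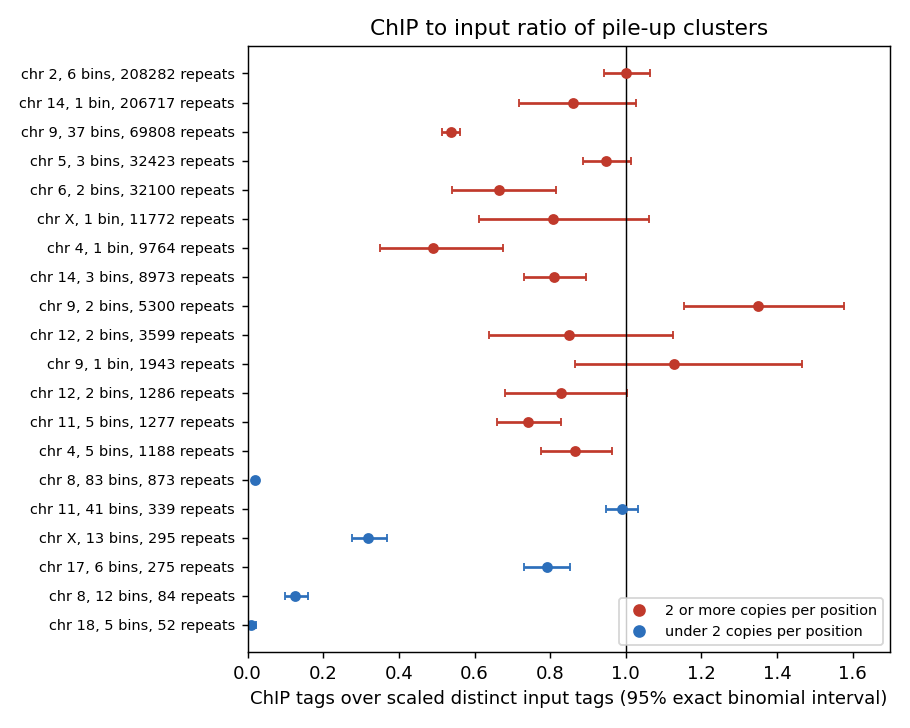
ChIP tags over scaled distinct input tags (x axis) for the 12 clusters of most repeats and the 8 others with at least 5 bins, with 95% exact binomial intervals, ordered by repeats. Clusters with 2 or more copies per position lie between 0.490 and 1.35, and those with fewer copies run from 0.0096 on chromosome 18 to 0.989 on chromosome 11.

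Within the chromosome 9 cluster, bins differed widely in the ratio of ChIP to input tags. Ratios ran from 0 to 1.49 with a median of 0.608, and 13 of the 37 bins were at 0.3 or lower and 17 at 0.8 or higher. From 3003000 to 3003999, 48 distinct input tags stood beside 32 ChIP tags, a ratio of 0.967 (0.598 to 1.54). From 3006000 to 3006999, 358 stood beside 9, a ratio of 0.0365 (0.0165 to 0.0700). From 3028000 to 3028999, 255 stood beside 9, and from 3036000 to 3036999, 236 stood beside 194, so these last 2 bins differed in ChIP tags at similar input. These 4 bins were chosen after their values were seen, to show the spread.

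Dense clusters ranged from near-equal shares to almost no ChIP tags. The longest, on chromosome 8 from 19680000 to 19799999, had 83 pile-up bins with 41 to 315 distinct input tags each (median 140) and 0 to 11 ChIP tags (median 1). It had a ratio of 0.0190 (0.0161 to 0.0222). The 36 bins with few repeats inside it had a ratio of 0.0330 at a median of 55 distinct input tags. A second stretch of chromosome 8, from 19855000 to 19880999, had 12 pile-up bins and a ratio of 0.127, and 5 bins of chromosome 18 from 4195000 to 4199999 had 5 ChIP and 756 input tags, a ratio of 0.0096. At these places the input was high over kilobases while ChIP tags were nearly absent.

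Other dense clusters had ChIP shares equal to their input shares, or lower. Of those below, only the chromosome 11 cluster had input per bin similar to the longest chromosome 8 cluster (median 140). On chromosome 11 from 3034000 to 3094999, 41 pile-up bins had 64 to 207 distinct input tags (median 128) and 53 to 156 ChIP tags (median 89), a ratio of 0.989 (0.948 to 1.03). On chromosome 17 from 39451000 to 39456999, 6 bins had a median of 306 input and 171 ChIP tags, at 0.791 (0.732 to 0.854). On chromosome X from 165330000 to 165348999, 13 bins with a median of 70 input tags stood at 0.319 (0.275 to 0.368). Relative to the even number for their occupied positions, repeats stood at 1.84 times in the chromosome 11, 1.61 times in the chromosome 17 and 10.8 times in the chromosome X cluster, against 1.80 times in the longest chromosome 8 cluster. In the chromosome 11 cluster the ChIP strand correlation was at most 0.0205, at 123 bp.

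Among the 290 bins with at least 50 distinct input tags, 41 had 0 ChIP tags. The 5 with most input among them were chromosome 8 from 19758000 (315 input tags), 19757000 (261), 19762000 (211) and 19732000 (203), and chromosome 18 from 4197000 (201). In the first, a count of 0 allows a ratio of up to 0.0138, taking 3 tags as the limit, or 0.0171 by the exact 2-sided interval. The 5 highest ratios were 1.54 (1.16 to 2.03) on chromosome 11 from 3087000, 1.45 (1.07 to 1.96) on chromosome 11 from 3069000, 1.42 (1.12 to 1.80) on chromosome 9 from 35054000, 1.36 (1.04 to 1.76) on chromosome 18 from 40434000 and 1.33 (0.954 to 1.84) on chromosome 2 from 98468000. As extremes of 290 bins, these intervals are not adjusted for the choice.

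Chromosomes differed in number, kind and ChIP share of their pile-up bins. Chromosome 8 had most, with 106 (0.881 per covered Mb against 0.205 over all chromosomes), of which 102 were dense, and the ratio of its pile-up bins was 0.0402 (0.0361 to 0.0446). Chromosome 11 had 54, of which 47 were dense, at a ratio of 0.947 (0.911 to 0.985). Chromosome 9 had 45, of which 40 were stacked, at 0.582 (0.558 to 0.606). Chromosomes 14 and 2 held 32.5% and 31.4% of all repeats in 15 and 24 bins. Chromosome 7 had fewest repeats, 65 in 8 bins, and chromosome 1 fewest bins per covered Mb, 0.0545 with 10 bins.

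Pile-up bins were frequent at the start of the mapped sequence of a few chromosomes. On every chromosome the first input tag lay between positions 3000001 and 3016333. The first 100 kb from there held 101 pile-up bins (20.4%) on 8 chromosomes, in 0.0707% of all bins, and 15.9% of all repeats. Of the 101, 46 were stacked and 55 dense, and their median ratio was 0.878 against 0.298 over all 495. Chromosomes 9 and 11 held 37 and 46 of the 101, while 12 chromosomes had 0 there, and the other 18 bins had a median ratio of 0.624. The last 100 kb of the chromosomes held 8 pile-up bins, 0 of them stacked.

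Isolated pile-ups have no other pile-up bin within 10 kb by choice, so the bins beside them hold few repeats by construction and are described without a comparison. In the 86 stacked bins that were alone in their cluster, the median was 8.5 distinct input tags (interquartile range 6 to 16.75) and 28 input lines. It was 4 and 3 distinct tags in the bins 1 kb to either side, next to a median of 4 over all bins with input. The median of ChIP tags was 2 in the bin and 2 and 1 beside it, whereas their mean was 12.1 in the bin and 2.19 and 2.06 beside it, so ChIP tags were high in some of these bins. In the 66 isolated dense bins medians were 47 input and 10.5 ChIP tags in the bin against 4 and 5 input and 3 and 3 ChIP tags in the bins beside it. The mean input there was 10.1 and 10.4 tags in the bins beside it, and 5.52 and 6.48 at 10 kb.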

How the data were processed

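Each deposited file lists mapped tags, 1 per line, for 1 library, with positions on mm8 per the submitters' processing notes. The aligner is not given in the sources used here, nor its filters. The labels name no molecular identifiers. Input tags were all 35 bp. Positions are printed as deposited; whether they count from 0 or 1 is not stated. The 5′ end was taken as the listed position in ChIP, and as the lower (plus strand) or upper (minus strand) end in input. The 4413 ChIP tags on other chromosomes were not analysed here. Bins start at multiples of 1000. Clusters joined bins at most 10 kb apart. The regions named are the 12 clusters of most repeats, the 5 bins of most ChIP tags, and the 5 lowest and 5 highest ratios among bins with at least 50 distinct input tags, plus clusters and bins said to be chosen after seeing values; clusters of 5 or more bins were added that way. The 3 kinds of bin, the runs, the classes of copies per position and the comparison bins with few repeats were set after the data were seen. The members and lists were chosen with earlier results of these data known. With 1 library per group no test was made. Recovery of planted pile-up bins, their summed ratio and their strand lag were tested on simulated tags. Clusters, runs, shared positions, copy classes and spacing were not. Python 3.11.15, numpy 2.4.6, pandas 2.3.3 and scipy 1.17.1 were used.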

Additional observations from a re-analysis of the deposited data

How the results depend on the processing

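No paired analysis was possible because each group has 1 library. The number of pile-up bins was 810, 273 and 103 at thresholds of 3, 10 and 50 repeated tags, which held 91.3%, 90.9% and 90.4% of all repeats. The ratio of ChIP to scaled input, 0.507, was then 0.475, 0.560 and 0.731. It was 0.0404 with all input lines kept, 0.497 with scaling by the median ratio over 10 kb bins, 0.480 without the cluster of most repeats, 0.470 without chromosomes 2 and 14, 0.497 with tag numbers corrected for occupied positions and 0.675 without the 2 leading chromosome 8 stretches, an alternative chosen after seeing the data. It stayed below 1 in all of these, which the choice of bins by input favours. Bins at least 1.5-fold above scaled input numbered 2, against 0 at 2-fold. Positions shared by the libraries rose from 18.5% to 26.2% when a distance of 1 bp was allowed. With the grid moved by 500 bp the rule found 492 bins, and with lower tag ends 496. Clusters numbered 297 and 235 with gaps of 1 and 100 kb, and the median strand offset of all pile-up bins stayed between 30 and 32 bp in input and between 32 and 32.25 bp in ChIP. The ratio of stacked bins lay between 0.713 and 0.737 with cuts of 1.5, 3 and 5 copies per position, while the median over single stacked bins moved from 0.481 to 0.633 and 0.785. No bin was nearly full, with at most 49.55% of its positions occupied in input and 34.9% in ChIP. Within runs where every base is occupied, however, collapsed tags cannot show more copies. The correction for occupied positions assumes tags placed evenly over the bin, so it does not cover such runs. Depth limits the ratios of sparse bins.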
